A study of Bos taurus with 30 samples.

Results

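bta-miR-33a, bta-miR-33b, bta-miR-103 and bta-miR-107 (written below without bta, the prefix for cattle) are 4 of the 1030 bovine miRNAs whose levels were deposited for the testes of Holstein-Friesian bull calves. They were chosen by name as miRNAs that lie inside genes of lipid metabolism, and 1 row of the table carries each name. The High group holds 15 calves given 10 L of milk daily, made with 1.5 kg of replacer, and concentrate on offer at all times, with growth of 1.0 kg daily as the target. The Moderate group holds 15 calves given 4 L of milk daily, made with 0.5 kg of replacer, and 0.5 kg of concentrate, with growth of 0.5 kg daily as the target. Both diets ran from 2 weeks of age, and the testes of all calves were taken at 12 weeks, so the groups share breed, sex, age and tissue. Each calf gave 1 small RNA library.

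A miRNA is a short RNA that pairs with mRNAs and lowers their stability and translation. miR-33a and miR-33b are made from the transcripts of SREBF2 and SREBF1, which encode the transcription factors that switch on genes of cholesterol and fatty acid synthesis, and they repress the cholesterol exporter ABCA1 and enzymes of fatty acid oxidation. miR-103 and miR-107 come from genes for pantothenate kinases, which start the synthesis of coenzyme A, and in mice they lower insulin sensitivity in liver and fat. In the testis, cholesterol is the raw material from which Leydig cells make testosterone.

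In the RefSeq gene table of the bovine assembly ARS-UCD2.0, each member's gene lay within the bounds of 1 other gene. MIR33A lay in SREBF2 and MIR33B in SREBF1. MIR107 lay in PANK1. miR-103 has 2 gene copies, MIR103-1 in PANK3 and MIR103-2 in PANK2, and its single row in the table cannot be divided between them.

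Levels are the deposited values, CPM computed on a library size adjusted with the TMM factors of edgeR, called TMM-scaled CPM here. The recovered depth was 6.0003 to 19.98 megareads (M reads) per library. The diet of a calf is its diet characteristic, which the ending of its sample code repeats, but in 18 of the 30 libraries the sample title names the other diet, so every diet difference below rests on that characteristic. Moderate replicate 5 stood apart, with 84.8% of its reads in miR-10b against 37.0% to 49.0% in the other 29, and results are therefore given with and without it. Its summed level of 3 red blood cell miRNAs was 7927, the highest of the Moderate group, where the median was 1062. That sum is mostly miR-486, whose mean over the other 29 libraries was 1243, against 96.6 for miR-451 and 4.65 for miR-144. Leaving the library out raised the log2 difference of miR-486, High minus Moderate, from 0.18 to 0.38. The same step lowered that of miR-451 from 0.25 to 0.15 and of miR-144 from 0.42 to 0.27. The 3 rows thus did not move together in this library. In Moderate replicate 5 the summed level of 4 germ cell miRNAs was 22.8, the lowest of the Moderate group, against a median of 75.9. Over the other 29 libraries this sum was mostly miR-34c, with a mean of 91.4. The summed level of miR-202 and miR-140, listed as gonadal somatic, was 3672 to 4590 in High and 1893 to 5057 in Moderate libraries. No other tissue was at hand for comparison. The 1893 is that of Moderate replicate 5, and the other Moderate libraries began at 3361. This library was also the lowest Moderate one for the endothelial miR-126 rows, at 5125 against a median of 10684. Its leukocyte rows summed to 5425, the highest of the Moderate group, against a median of 2936, but they did not move together. Leaving it out raised the log2 difference of miR-146a from 0.01 to 0.14, miR-146b from 0.91 to 1.09 and miR-155 from -0.17 to -0.13. The same step lowered miR-142-3p from -0.02 to -0.11, miR-142-5p from -0.02 to -0.05 and miR-223 from -0.40 to -0.42, while miR-150 stayed at -0.06. Of the striated muscle miRNAs, miR-1 and miR-206 were listed at 0 in every library.

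All 4 members had a higher mean level in High than in Moderate testes, and none passed an adjusted p of 0.05 in limma, the linear model fitted to all miRNAs on the log2(value + 0.5) scale. In that fit 19 of 387 tested miRNAs passed, or 4.91%. The estimated fold, High over Moderate, was 1.09 for miR-103, 1.08 for miR-107, 1.24 for miR-33b and 1.40 for miR-33a. With Moderate replicate 5 left out the estimates were 1.08-fold for miR-103, 1.08-fold for miR-107, 1.12-fold for miR-33b and 1.13-fold for miR-33a. The median log2 fold change of all tested miRNAs was 0.03 with that library and 0.00 without it.

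**Figure D1:**
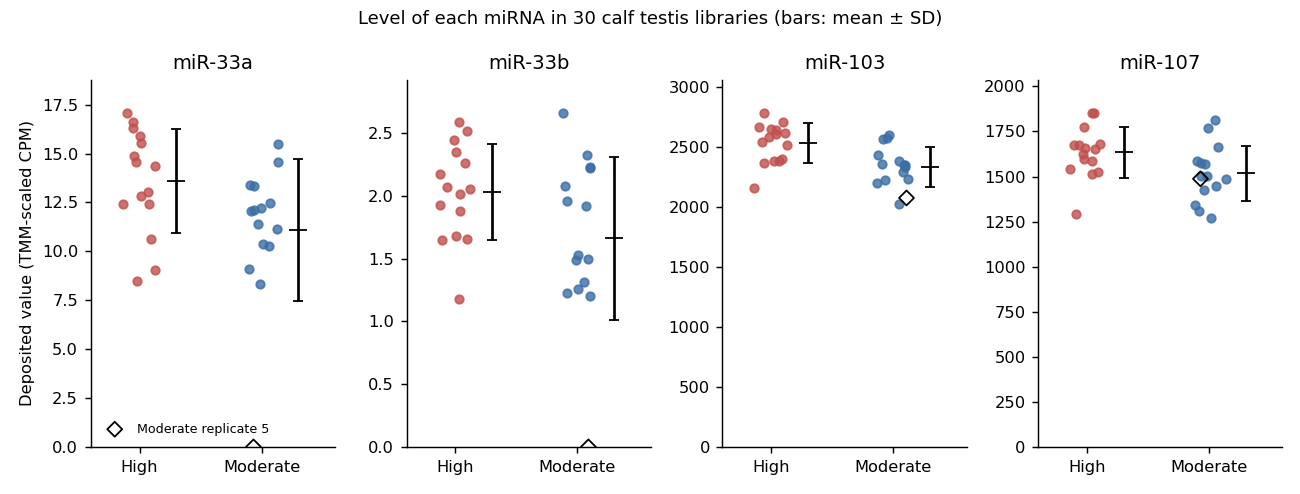
Each point is 1 library, grouped by diet, with its deposited value in TMM-scaled CPM on the vertical axis, and the bars give the mean and SD of 15 libraries. The High and Moderate points of every member overlap, and Moderate replicate 5 (open diamond) is at 0 for miR-33a and miR-33b but within reach of the others for miR-103 and miR-107.

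miR-103 was the most abundant of the 4, ranking 36th of the 387 tested miRNAs by mean value and holding 0.251% of the reads of a library on average. In High testes its lowest, median and highest values were 2156, 2579 and 2779 TMM-scaled CPM. In Moderate testes they were 2024, 2345 and 2598. The ranges overlapped, yet 14 of 15 High libraries lay above the Moderate median and 7 lay above the highest Moderate library. High replicate 2 was the 1 High library below the Moderate median.

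The level of miR-103 averaged 2532 ± 165 in High and 2332 ± 169 in Moderate testes (SD, n = 15 each). The log2 fold change was 0.12 with a standard error of 0.04 and a 95% confidence interval of 0.03 to 0.21. limma gave an unadjusted p of 0.00967 and an adjusted p of 0.0820, the 44th smallest p of the 387. At an unadjusted p under 0.05, 21.2% of the tested miRNAs stood out, so a difference of this kind was common in these libraries. A two-sided permutation test of the log2 levels with 100000 resamples gave an unadjusted p of 0.00378, and 0.00698 without Moderate replicate 5.

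Whether miR-103 was called depended on the test. DESeq2 on the recovered reads gave a log2 fold change of 0.11 and an adjusted p of 0.0482, in a fit that called 48 of the 480 miRNAs to which it gave an adjusted p, or 10.0%. Its own filter gave none to 358 others of low level. edgeR's quasi-likelihood test gave 0.09 and an adjusted p of 0.205, in a fit that called 36 of 378 filtered miRNAs, or 9.52%. With Moderate replicate 5 left out, limma gave 0.11 with an adjusted p of 0.0635 (11.7% called), edgeR 0.12 with an adjusted p of 0.0488 (12.6% called) and DESeq2 0.12 with an adjusted p of 0.0310 (12.3% of 480 called). miR-103 thus lay close to the threshold in limma and on either side of it in the count tests.

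miR-107, whose mature sequence is known to be nearly the same as that of miR-103, ranked 46th by mean value. In High testes its lowest, median and highest values were 1294, 1654 and 1852 TMM-scaled CPM. In Moderate testes they were 1267, 1504 and 1814. As for miR-103, 14 of 15 High libraries lay above the Moderate median and the lowest High library was replicate 2, but only 2 High libraries lay above the highest Moderate one.

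miR-107 averaged 1633 ± 140 in High and 1517 ± 154 in Moderate testes (SD, n = 15 each). Its log2 fold change was 0.11 with a standard error of 0.05, and the 95% confidence interval of the fold ran from 0.999 to 1.16. The adjusted p was 0.246 in limma, 0.456 in edgeR and 0.311 in DESeq2. None of the 3 tests called it without Moderate replicate 5 either, with adjusted p of 0.163, 0.142 and 0.168. The permutation test gave an unadjusted p of 0.0397 with that library and 0.0502 without it.

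The level of miR-103 stood above that of miR-107 in every library, and by nearly the same factor in both diets. The ratio of miR-103 to miR-107 was 1.55 ± 0.08 in High and 1.54 ± 0.08 in Moderate testes (SD, n = 15 each). Over the 30 libraries it ran from 1.39 in Moderate replicate 5 to 1.73 in High replicate 8. On the log2 scale the ratio differed by 0.01 between the diets, less than its SD of 0.07 among High and 0.08 among Moderate calves (permutation p = 0.691, two-sided, and 0.691 after adjustment over the 2 ratios tested). Leaving out Moderate replicate 5 gave a log2 difference of 0.00. Reads of miR-103 came out as a fraction of a read in 13 of 30 libraries and those of miR-107 in none. No source used here says how the authors divided reads that match several miRNAs, so the split between this pair of near-identical miRNAs is uncertain.

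miR-33a, the SREBF2 member, was far less abundant and ranked 223rd of 387. In High testes its lowest, median and highest values were 8.49, 14.3 and 17.1 TMM-scaled CPM, from 66 to 299 reads. In Moderate testes they were 0, 12.1 and 15.5, from 0 to 243 reads. High testes lay above the Moderate median in 12 of 15 libraries, and 5 lay above the highest Moderate library, while High replicates 6 and 2 were among the lowest of all.

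The 0 belongs to Moderate replicate 5, and the next lowest Moderate library was at 8.34. At the mean level of the other 14 Moderate libraries, replicate 5 would have held 24.97 reads of miR-33a. A count of 0 allows up to 3 reads, or 1.43 TMM-scaled CPM in that library, counting error only, which is below all other 29 libraries. The same library had 4358 reads of miR-103 and 3127 of miR-107, where the mean of the other Moderate libraries corresponds to 4941 and 3194. miR-33a was thus missing from a library in which miR-103 and miR-107 stood near the level of the others.

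miR-33a averaged 13.6 ± 2.67 in High and 11.1 ± 3.61 in Moderate testes (SD, n = 15 each), and 11.9 ± 1.98 in Moderate testes without replicate 5 (n = 14). The log2 fold change was 0.49 with a standard error of 0.30 (limma adjusted p = 0.381). Without Moderate replicate 5 it was 0.18 with a standard error of 0.10 (limma adjusted p = 0.235), and the 95% confidence interval of the fold was 0.984 to 1.30. That 1 library thus moved the log2 estimate by more than any other: when each library was left out in turn the estimates ran from 0.18 to 0.54. The permutation test gave an unadjusted p of 0.0434 with it and 0.0863 without it. edgeR and DESeq2 on all 30 libraries gave log2 fold changes of 0.25 and 0.27, with adjusted p of 0.359 and 0.189.

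miR-33b, the SREBF1 member, was at the edge of detection and ranked 345th of 387. In High testes its lowest, median and highest values were 1.18, 2.05 and 2.59 TMM-scaled CPM, from 9 to 45 reads. In Moderate testes they were 0, 1.53 and 2.66, from 0 to 30 reads. The 2 groups overlapped along nearly the whole range, and no High library lay above the highest Moderate one, although 14 of 15 lay above the Moderate median. That count depends on Moderate replicate 5. Without it the Moderate median was 1.73, above High replicates 13, 2, 12 and 1 at 1.18, 1.65, 1.66 and 1.68. Moderate replicate 5 was again at 0, but at the mean of the other Moderate libraries it would have held 3.74 reads, so this 0 is not distinguishable from a low count.

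miR-33b averaged 2.03 ± 0.38 in High and 1.66 ± 0.65 in Moderate testes (SD, n = 15 each), and 1.78 ± 0.48 in Moderate testes without replicate 5 (n = 14). The log2 fold change was 0.31 with a standard error of 0.17 (limma adjusted p = 0.298). Without Moderate replicate 5 it was 0.16 with a standard error of 0.10 (limma adjusted p = 0.320), and the 95% confidence interval of the fold was 0.967 to 1.30. The permutation test gave an unadjusted p of 0.0569 with that library and 0.114 without it.

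The ratio of miR-33a to miR-33b was 6.97 ± 2.20 in High testes (n = 15) and 7.15 ± 2.32 in the 14 Moderate testes where both were above 0 (SD). It varied from 3.86 in Moderate replicate 11 to 12.6 in High replicate 13, far more than that of miR-103 to miR-107. The log2 ratio differed by 0.18 between the diets in 30 libraries and by 0.02 without Moderate replicate 5, where it can be formed without a pair of zeros (permutation p = 0.457 and 0.912, two-sided, 0.691 and 0.983 after adjustment over the 2 ratios).

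The members differed in how closely libraries of 1 diet resembled each other. Over the 29 libraries without Moderate replicate 5, the within-diet coefficient of variation was 6.62% for miR-103 and 9.50% for miR-107. Counting error alone would give 0.658% and 0.818%. No library was made again from the same calf, so spread between calves and spread from library preparation cannot be told apart. On the log2 scale the SD of miR-103 was 0.10, the 10th lowest of 387 tested miRNAs, whose median SD was 0.25. miR-107, at 0.14, ranked 64th from the lowest.

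For the scarce pair, the spread was closer to counting error. The within-diet coefficient of variation of miR-33a was 18.5%, against 9.07% from counting alone. That of miR-33b was 22.6%, against 23.4% from counting alone, so its values spread no more than counting error would at this depth. Their log2 SDs of 0.27 each were close to the median of all tested miRNAs. Without molecular identifiers, PCR copies count as reads, and the counting error given here leaves that out.

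**Figure D2:**
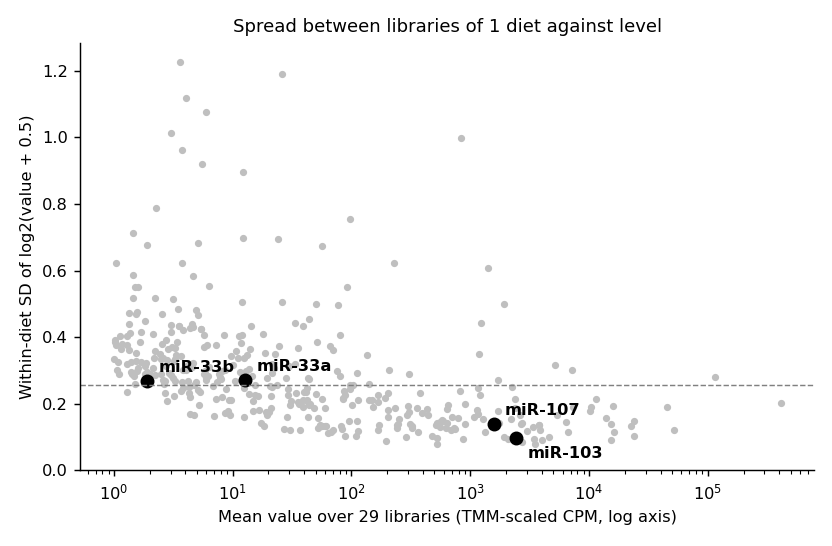
Each grey point is 1 of the 387 tested miRNAs, with its mean TMM-scaled CPM on a log axis and, on the vertical axis, the SD of log2(value + 0.5) within diets over 29 libraries. miR-103 at 0.10 and miR-107 at 0.14 lie near the lower edge, and miR-33a and miR-33b at 0.27 lie next to the dashed median of 0.25.

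Across libraries, miR-103 and miR-107 varied together, and miR-33a varied with them while miR-33b did not. Pearson's r of the log2 levels, with the mean of each diet taken off, was 0.89 between miR-103 and miR-107 over 29 libraries (Spearman's rho 0.84). It was 0.67 between miR-33a and miR-103 (rho 0.63) and 0.50 between miR-33a and miR-107 (rho 0.44). Between miR-33a and miR-33b it was 0.01 (rho -0.02). miR-33b, with a spread no larger than counting error, gave -0.13 with miR-103 and -0.18 with miR-107. The values of 1 library share a scaling factor, and the split of reads between miR-103 and miR-107 is uncertain. These coefficients are therefore given as descriptions.

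**Figure D3:**
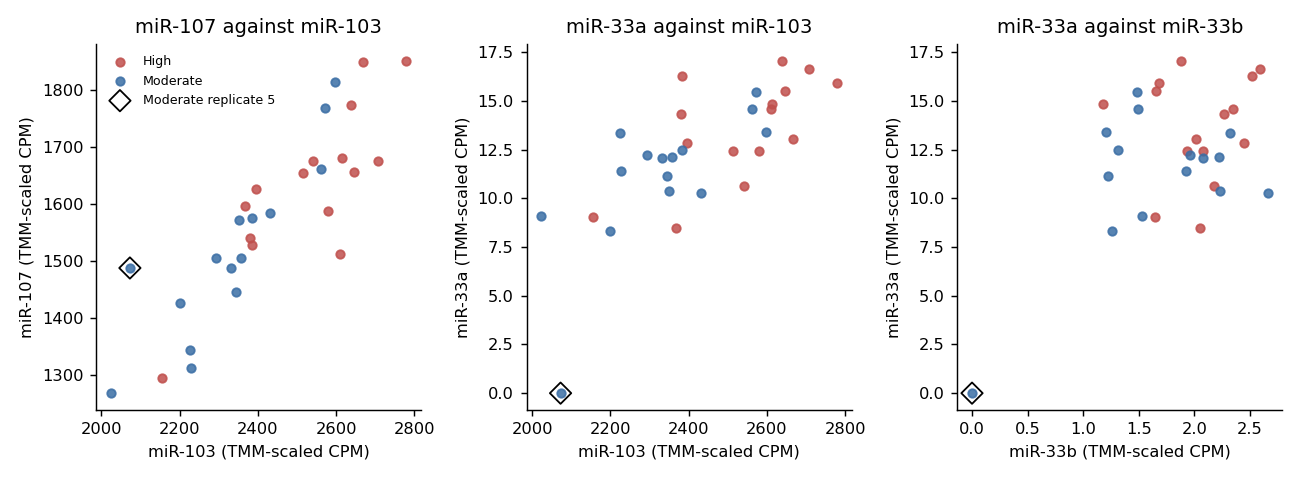
Each point is 1 library, with TMM-scaled CPM on both axes and Moderate replicate 5 ringed by a diamond. miR-107 climbs with miR-103 in both diets, miR-33a does so more loosely, and miR-33a shows no such slope against miR-33b apart from the library at 0 for both.

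By the same measure, the 3 tested miRNAs most like miR-103 were miR-107, miR-33a and miR-6120-3p (r = 0.66). For miR-107 they were miR-103, miR-496 (r = 0.69) and miR-2285au (r = 0.60). For miR-33a they were miR-22-3p (r = 0.73), miR-103 and miR-22-5p (r = 0.62). miR-22-3p was itself higher in High testes, by 0.30 on the log2 scale (limma adjusted p = 0.0260), and both arms of the miR-22 hairpin stood among the 3 nearest to miR-33a. For miR-33b the nearest were miR-129 and miR-129-5p, which carry the same r of 0.53 and the same values, and miR-1388-3p (r = 0.46).

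Within diets, library depth moved little with the members, while the miR-10b share moved most with miR-33a, in the opposite direction. Over 29 libraries Pearson's r with log10 depth lay between -0.15 for miR-103 and 0.03 for miR-33b. With the miR-10b share it lay between -0.33 for miR-33a and 0.01 for miR-107. The part of the miR-10b share in the miR-33a result was not tested beyond these values.

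In the 24 libraries under 12 M reads (11 High, 13 Moderate) the log2 fold change of miR-103 was 0.13, and in the 6 deeper ones (4 High, 2 Moderate) it was 0.12. For miR-107 the 2 values were 0.10 and 0.18. For miR-33a they were 0.56 and 0.13, and for miR-33b 0.30 and 0.33. The shallower libraries other than Moderate replicate 5 gave 0.20 for miR-33a and 0.13 for miR-33b. All of these were positive and none was called (limma adjusted p of 0.0978 or more).

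The conflict between the labels bears on all 4 members. In the 12 libraries whose title and diet characteristic give the same diet, miR-103 averaged 2565 ± 169 in High and 2290 ± 169 in Moderate testes (SD, n = 6 each), a log2 fold change of 0.16. In the 18 with conflicting labels, taken by their diet characteristic, it averaged 2510 ± 169 in High and 2360 ± 172 in Moderate testes (n = 9 each), a log2 fold change of 0.09. miR-107 gave 0.16 and 0.08 in these sets of libraries. miR-33a gave 0.90 in the 12, of which 0.12 remained without Moderate replicate 5, and 0.21 in the 18. miR-33b gave 0.55 in the 12, 0.20 without that library, and 0.15 in the 18. No tested miRNA passed in limma in either set (43 of 391 and 58 of 384 at an unadjusted p under 0.05).

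Grouped by the diet in the titles, the estimates of all 4 members were nearer to 0. The log2 fold change was then 0.01 for miR-103 and 0.02 for miR-107. It was 0.23 for miR-33a and 0.13 for miR-33b, and -0.084 and -0.021 without Moderate replicate 5, which both labels place in the Moderate group. No miRNA of the 387 passed under the titles in limma, with 11 at an unadjusted p under 0.05.

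**Figure D4:**
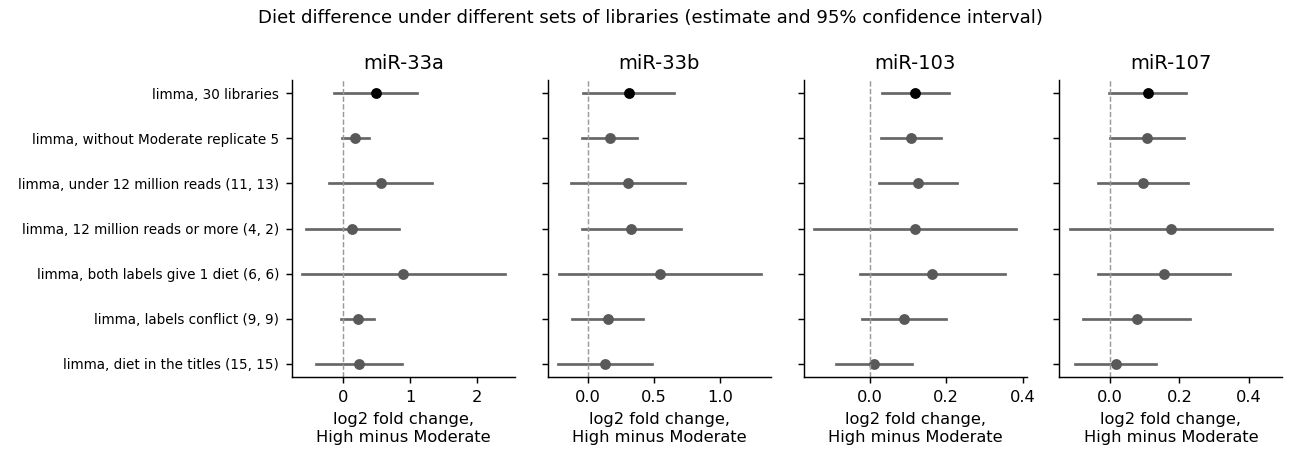
Points give the log2 fold change, High minus Moderate, of each member in limma, with its 95% confidence interval, and numbers in brackets are High and Moderate libraries. The estimates lie right of 0 in every set of libraries shown, and those grouped by the titles are the nearest to 0 for miR-103 and miR-107.

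Among other miRNAs linked to cholesterol, lipid or insulin regulation, 1 rose and 1 fell. Of 31 tested rows of this list, miR-27b rose, miR-320a fell and 29 did not pass in limma, a share near the 4.91% called over all tested miRNAs. Their median log2 fold change was 0.06, against 0.03 over all tested miRNAs. miR-27b, which represses regulators of lipid metabolism, averaged 23806 ± 2111 in High and 20362 ± 2784 in Moderate testes (log2 fold change 0.23, limma adjusted p = 0.0409). miR-320a averaged 649 ± 68.6 in High and 752 ± 80.6 in Moderate testes (-0.21, limma adjusted p = 0.0409).

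miR-29c, a repressor of collagen genes that has also been linked to insulin action, stood next in this list at 0.39 (limma adjusted p = 0.0619). Without Moderate replicate 5, 3 of the list rose, miR-27b, miR-29a and miR-29c, and miR-320a again fell, in a fit that called 11.7% of all tested miRNAs. The median of the list was then 0.00, as was that of all tested miRNAs. miR-33a, miR-33b, miR-103 and miR-107 are not rows of this list, and none of them passed in limma with or without Moderate replicate 5.

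The miR-15/16 group has a seed, the stretch that pairs with targets, shifted by 1 base from that of miR-103 and miR-107, and many of its targets are cell cycle genes. Of the 10 tested rows under its names, miR-497 rose and 9 did not pass in limma, where 4.91% of all tested miRNAs were called. The rows include 2 opposite arms, miR-424-3p and miR-503-3p, which do not carry this seed. miR-497 averaged 256 ± 30.1 in High and 200.4 ± 44.7 in Moderate testes (log2 fold change 0.40, limma adjusted p = 0.0462). miR-15a stood at 0.13 and miR-195 at 0.20, both with an adjusted p of 0.0820 in limma, the same as that of miR-103. Over the 10 rows the median log2 fold change was 0.12, and 0.09 without Moderate replicate 5. Over the 8 rows other than these arms, a choice made after their values were seen, it was 0.16 and 0.12. The 30-library value was above 0 for 7 of the 8, where 56.3% of all tested miRNAs were above 0. Without Moderate replicate 5, miR-424-5p (-0.04) and miR-503-5p (-0.10) were below 0, where 50.9% of all tested miRNAs were above 0.

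**Figure D5:**
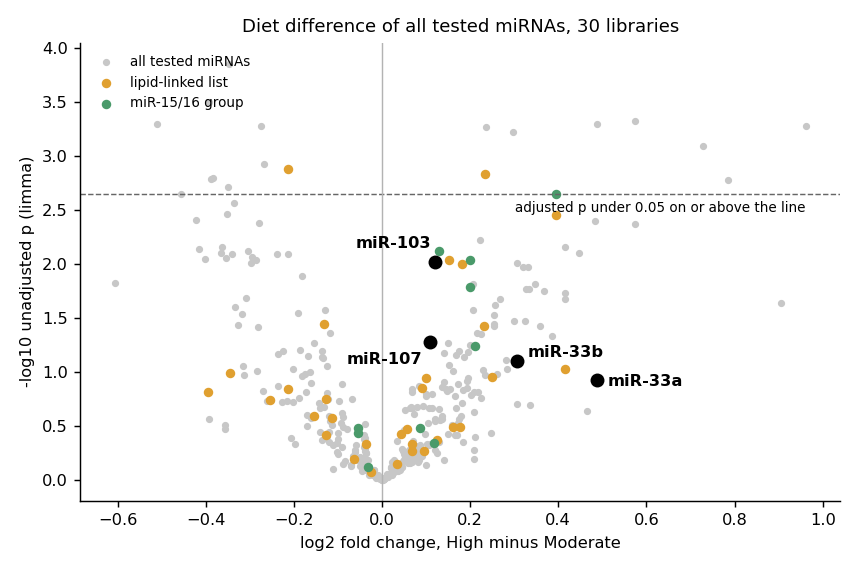
Each point is 1 of 387 tested miRNAs, with the log2 fold change, High minus Moderate, on the horizontal axis and -log10 of the unadjusted limma p on the vertical axis. The 4 members (black) lie right of 0 and below the dashed line, miR-103 nearest to it, among members of the lipid-linked list (orange) and the miR-15/16 group (green).

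The libraries are of whole testis, so fewer cells of a type and less miRNA per cell cannot be told apart. Of the cell type markers, 2 of 3 tested germ cell miRNAs rose with the High diet in limma, which called 4.91% of all tested miRNAs. These were miR-34b (log2 fold change 0.73, limma adjusted p = 0.0313) and miR-34c (0.96, limma adjusted p = 0.0260). The third, miR-449a, stood at 0.02 (limma adjusted p = 0.949). The summed level of the 4 germ cell rows ran from 90.2 to 265 in High testes. In Moderate testes it ran from 22.8 to 185, or from 41.0 to 185 without Moderate replicate 5. On average that sum is mostly miR-34c, at 113 in High and 64.6 in Moderate testes, against 11.7 and 11.9 for miR-449a. None of the 2 smooth muscle, 2 endothelial, 3 red blood cell, 7 leukocyte, 4 epithelial or 3 striated muscle rows tested passed in limma. Without Moderate replicate 5, where limma called 11.7% of all tested miRNAs, the leukocyte miR-146b (log2 fold change 1.09) and the striated muscle miR-499 (0.41) rose. The other striated muscle rows, miR-133a and miR-133b, then stood at -0.05 and 0.04. Of the other leukocyte rows, miR-146a stood at 0.14. miR-142-3p, miR-142-5p, miR-150, miR-155 and miR-223 stood at -0.11, -0.05, -0.06, -0.13 and -0.42. The part of the germ cell miRNAs in the member levels was not tested.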

How the data were processed

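Per the submitters' processing notes, FastQC 0.11.8, cutadapt 2.6, R 3.4 and edgeR 3.5 were used. The sources used here name no aligner, miRNA reference or genome build. The deposited values are a normalized signal, not counts: low values within a column are whole multiples of 1 read's worth, and 95.3% of values above 0 came out as whole reads within 0.02 read. TMM factors from these reads matched the deposited scaling within 0.000212 (natural log).

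limma 3.58.1 (R 4.3.3, mean-variance trend) was fitted on log2(value + 0.5) for the 387 miRNAs that reached a value of 1 in 15 or more libraries, with diet as the only term and Benjamini-Hochberg adjustment. The pseudocount shrinks differences between low values, while a library at 0 can enlarge them: miR-33a stood at 0.49 in limma, 0.25 in edgeR and 0.27 in DESeq2. edgeR 4.0.16 and DESeq2 1.42.0 were run on the recovered reads, rounded, and the edgeR fit called 36 of 378 miRNAs. Single values used permutation tests.

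Named are the 4 members, the 3 miRNAs most like each, and in each list those past the threshold and others of smallest p. The members and lists were chosen with earlier results of these data known. Replicate numbers follow accession order. No mature sequences were used here.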

Additional observations from a re-analysis of the deposited data

How the results depend on the processing

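No paired analysis was possible because the labels give calves no shared replicate numbers. No adjusted p of miR-107, miR-33a or miR-33b passed 0.05 in any alternative run. miR-103 passed in DESeq2 (log2 fold change 0.11) and, in alternatives chosen after seeing the data, all without Moderate replicate 5, in edgeR (0.12), in DESeq2 (0.12) and in limma with library totals alone (0.18, adjusted p = 0.0467, 8.05% called). Leaving out 1 library at a time gave log2 fold changes of 0.11 to 0.14 for miR-103, 0.09 to 0.13 for miR-107, 0.18 to 0.54 for miR-33a and 0.16 to 0.35 for miR-33b, with no adjusted p under 0.05. Library totals alone moved the median of all tested miRNAs to 0.22, and relative to that median the members stood at 0.12, 0.10, 0.34 and 0.15 in the same order. With a minimum value of 5, miR-33b was not tested.

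With the titles as diet and Moderate replicate 5 left out, the log2 fold changes were -0.084 for miR-33a, -0.021 for miR-33b and -0.0037 for miR-103. The log2 ratio of miR-103 to miR-107 turned to -0.057 in the libraries of at least 12 M reads, -0.0044 under the titles, -0.015 under the titles without Moderate replicate 5, and -0.018 in the 12 libraries without it. That of miR-33a to miR-33b turned to -0.19 in the libraries of at least 12 M reads, -0.063 under the titles without Moderate replicate 5 and -0.072 in the 12 libraries without it. None of these ratios had a permutation p under 0.05, exact where a group had fewer than 10 libraries, and the smallest was 0.267. That smallest p came from the libraries of at least 12 M reads. With 4 High and 2 Moderate libraries too few arrangements exist for a p under 0.05, so there the test cannot decide. The cause was not tested.

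The number of miRNAs past the threshold, 19 in limma, was 36 in edgeR, 48 in DESeq2, 3 under 12 M reads and 2 above. It was 0 with library totals alone, with no filter on low values, under the titles with or without Moderate replicate 5, in the 12 libraries with or without it, and in the 18 (unadjusted p under 0.05 in 11 to 104). Leaving out 1 library gave 0 (High replicate 5) to 45 (Moderate replicate 5). Without Moderate replicate 5 it was 48 in edgeR, 59 in DESeq2, 31 with library totals alone and 31 under 12 M reads. Upper-quartile scaling called 13 higher and 8 lower, against 9 and 10.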
